A study of Mus musculus with 29 samples.

Results

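The cell division genes described here are 40 mouse genes that a dividing cell needs, taken as a list of gene names. All 40 were present among the 55292 gene names in the count files. By textbook role, 31 belong to the G2 phase and mitosis (M) and 9 to DNA synthesis (S phase). Their RNA was measured by poly-A RNA sequencing in 29 libraries of atria, the upper chambers of the heart, from male mice. Control mice (Ctrl) and transgenic mice labelled NaV1.5 received a regular diet (RD) or, for 4 weeks from 5 weeks of age, a high-fat diet (HFD). There were 4 libraries each of Ctrl_RD, Ctrl_HFD and NaV1.5_RD, and 5 of NaV1.5_HFD, which form the diet experiment. In a second experiment all mice were NaV1.5 on HFD, and were given either vehicle, with 5 libraries, or the NAD precursor nicotinamide riboside (NR), with 7. The labels give a start age of 5 weeks for all 29 libraries, RD included, and 4 weeks of HFD in the second experiment too. The labels name neither the promoter of the transgene nor the animal behind each library. The p-values thus rest on the spread between libraries, which may in part be technical.

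A cell that divides first copies its DNA with the MCM helicase, PCNA and enzymes that supply nucleotides. It then enters mitosis when CDK1 binds B-type cyclins, attaches chromosomes to the spindle through kinetochores, and destroys the cyclins through the anaphase-promoting complex before it splits. RNA of the mitotic genes is made mainly in G2 and M, so in a tissue it is known as a sign of dividing cells. Adult heart muscle cells rarely divide, and fibroblasts, endothelial cells and immune cells make up most dividing cells of the heart. In whole atria, a larger number of dividing cells and more RNA per cell cannot be told apart.

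Total counts ran from 13189995 to 33061018 per library. In the diet experiment the labels give batch 2 to Ctrl_HFD replicate 4 and batch 1 to the rest. All vehicle libraries and NR replicates 6 and 7 are labelled batch 3, and NR replicates 1 to 5 batch 2. Batch was a term in each fit, so Ctrl_HFD replicate 4 has no weight, and NR is compared through 2 NR and 5 vehicle libraries. The labels do not say what a batch is. Ctrl_HFD replicate 4 was the highest of its group for 20 of the 40 genes. The extra record named flag in the annotation had 0 counts in all libraries. Markers of atrial heart muscle summed to 19960 CPM or more (CPM being counts scaled to library size, with TMM factors) in each library.

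Most genes of G2 and M were low, and the genes of DNA replication higher. In Ctrl_RD, mean levels per kilobase of gene model ran from 0.0389 CPM per kb for Bub1, a spindle checkpoint kinase, to 10.4 for Pcna, the sliding clamp of DNA replication. The next highest were Cenpa, the histone H3 variant of centromeres, at 7.19 CPM per kb and the helicase subunit Mcm6 at 3.07. The highest of G2 and M after Cenpa were Cdc20, an activator of the anaphase-promoting complex, at 1.58 and Ccnb2, a B-type cyclin, at 0.835. Nusap1, a spindle protein, had 0.453 CPM per kb. Of 1160 values (40 genes in 29 libraries), 2 were 0 counts, both of Bub1, where 3 counts would be 0.188 CPM in Ctrl_RD replicate 2 and 0.206 CPM in NaV1.5_RD replicate 4. A filter on low counts left 38 of the 40 genes in the diet experiment and all 40 in the NR experiment. Bub1 and the checkpoint kinase Ttk did not pass it in the diet experiment. Their means there were 0.169 ± 0.163 and 0.241 ± 0.115 CPM (SD, n = 4) in Ctrl_RD, and 0.421 ± 0.368 and 0.483 ± 0.291 CPM (n = 5) in NaV1.5_HFD.

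**Figure D1:**
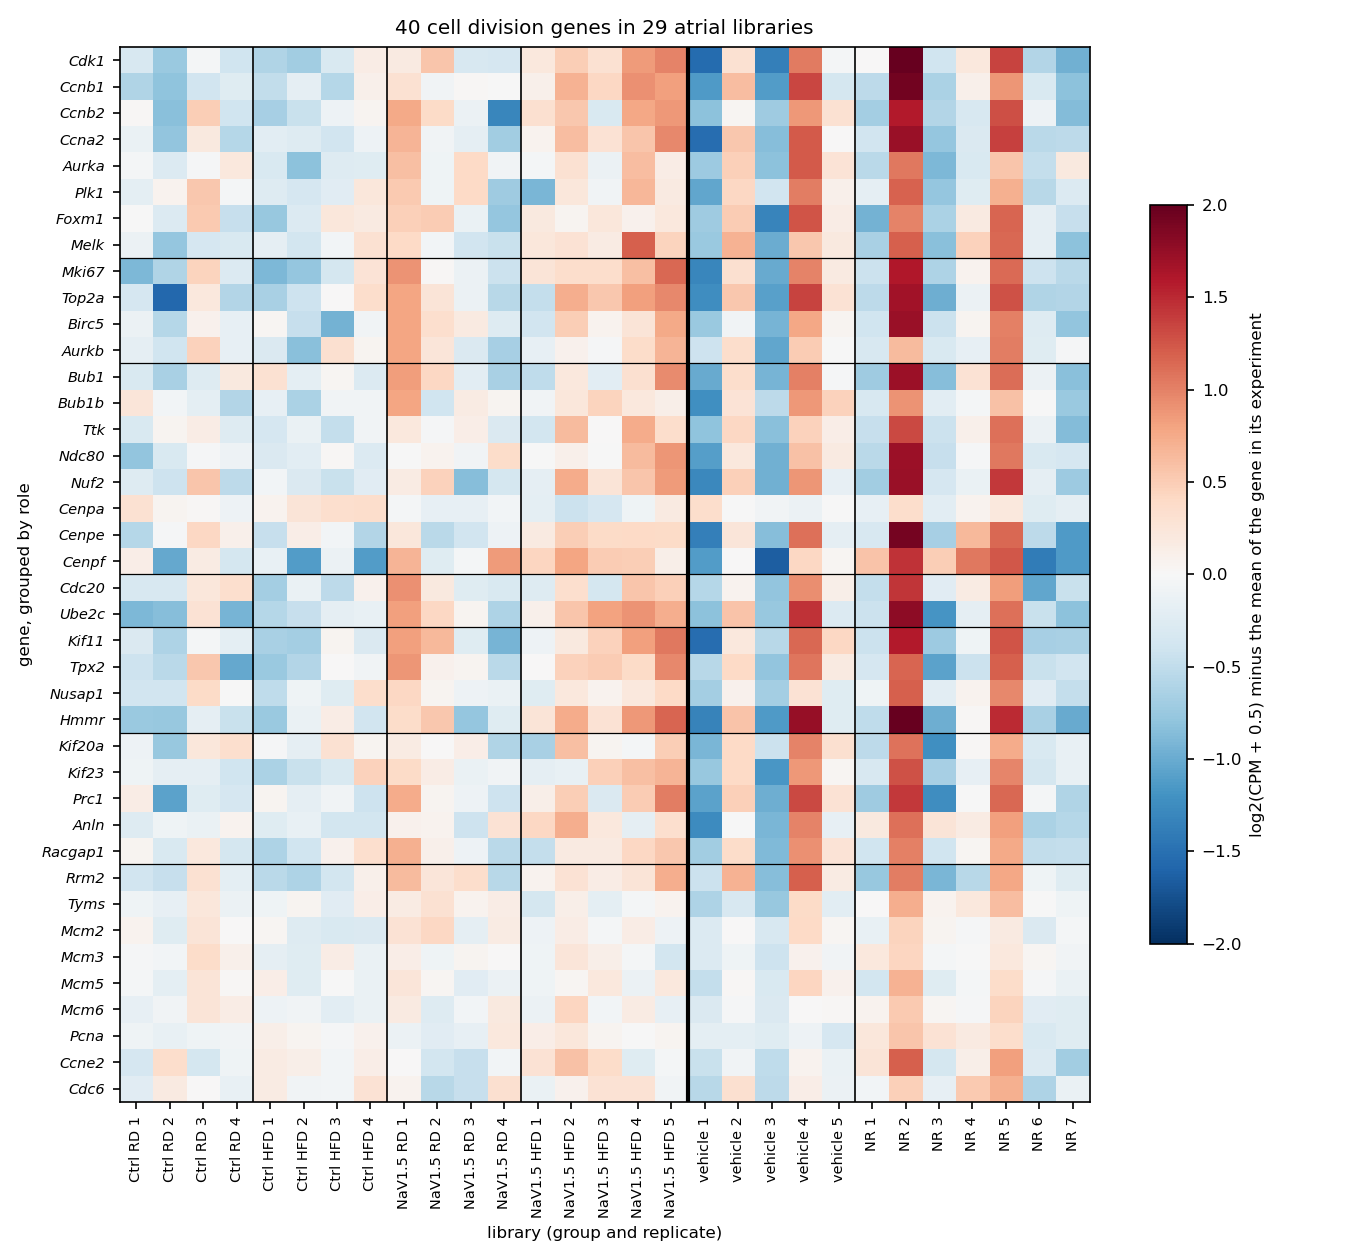
Level of each of the 40 genes (rows, grouped by role from mitotic entry at the top to S phase at the bottom) in each of the 29 libraries (columns), as log2(CPM + 0.5) minus the mean of the gene within its experiment; the thick line parts the diet experiment from the NR experiment. Most G2 and M rows are red in NaV1.5_HFD libraries other than replicate 1, and in single libraries such as NaV1.5_RD 1, vehicle 4, NR 2 and NR 5. Rows of NaV1.5_HFD replicate 1, the lowest of its group for 21 of the 31 G2 and M genes, are mixed. Cenpa and the lowest rows, except Rrm2, are paler.

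Averaged over both diets, 2 of the 38 tested genes rose in NaV1.5 atria, and both act together at the entry into mitosis. They were Ccnb1, the main mitotic cyclin (GRCm38 chromosome 13, 100778650 to 100786570, minus strand), and Cdk1, the kinase it activates (chromosome 10, 69335146 to 69352938, minus strand). Over all 16168 genes tested, 0.272% were called higher and 0.179% lower at an adjusted p below 0.05 (edgeR quasi-likelihood test, Benjamini-Hochberg). No cell division gene was called lower; at an unadjusted p below 0.05 the lower count was 1 (Cenpa), and limma-voom also called Cenpa lower (1.43% of all genes), while DESeq2 called 0 (0.792%). The unadjusted share lower over all genes was 5.16%.

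Ccnb1 had 0.293, 0.188, 0.415 and 0.510 CPM in the 4 Ctrl_RD libraries and 0.351, 0.559, 0.303 and 0.787 in Ctrl_HFD. In NaV1.5_RD it had 0.988, 0.644, 0.714 and 0.687 CPM, and in NaV1.5_HFD 0.788, 1.43, 1.09, 1.75 and 1.61. On each diet every NaV1.5 library therefore lay above every control library, with the nearest pair on HFD at 0.787 in Ctrl_HFD replicate 4 and 0.788 in NaV1.5_HFD replicate 1. The log2 difference averaged over diets was 1.38 (SE 0.26, edgeR adjusted p = 0.0141), with the SE taken from the size of the difference and its F statistic. The raw counts behind these values were low, between 3 and 37 per library.

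Cdk1 had 2.08, 1.44, 2.64 and 1.96 CPM in Ctrl_RD and 1.64, 1.49, 2.12 and 3.10 in Ctrl_HFD. It had 3.14, 4.24, 2.08 and 2.06 CPM in NaV1.5_RD and 3.26, 4.07, 3.51, 5.36 and 5.92 in NaV1.5_HFD. The groups overlapped on RD and not on HFD. The log2 difference averaged over diets was 0.93 (SE 0.19, edgeR adjusted p = 0.0302). Without NaV1.5_RD replicate 1 neither gene passed, at 1.29 for Ccnb1 (edgeR adjusted p = 0.0536) and 0.90 for Cdk1 (adjusted p = 0.0744). Cdk1 also missed the threshold without Ctrl_RD replicate 1 or 2, NaV1.5_RD replicate 2, Ctrl_HFD replicate 1 or 2, or NaV1.5_HFD replicate 4, and Ccnb1 without Ctrl_HFD replicate 3. With all 29 libraries in one fit neither passed (edgeR adjusted p = 0.277 for Ccnb1 and 0.353 for Cdk1), and with no batch term Cdk1 did not (0.81, adjusted p = 0.0564). Ccnb1 passed in 22 and Cdk1 in 16 of 26 alternative analyses, and both kept their sign in all 26. Of these, 17 were refits without 1 library, so they share most of their data and are not independent.

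At an unadjusted p below 0.05, 21 of the 38 tested genes were higher over both diets, against 6.24% of all genes. DESeq2 called 8 genes higher at an adjusted p below 0.05, against 0.94% of all genes: Ccnb1, Cdk1, Cenpf, Hmmr, Kif23, Mki67, Rrm2 and Ube2c. limma-voom called 11, against 1.8% of all genes. The median log2 difference was 0.70 for 29 tested genes of G2 and M, 0.04 for 9 genes of S phase and 0.01 for all genes tested. These medians describe genes that passed the filter, chosen as a list with earlier results of these data known.

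The sequence before the start of Ccnb1 and Cdk1 is shown because these 2 genes passed the test, with Mki67 and Top2a as G2 and M genes and Mcm6 as an S phase gene. RefSeq gives promoters on GRCm38.p6 for 34 of the 40 genes. Each line runs 5′ to 3′ on the minus strand, toward the gene, and ends just before the RefSeq start, except that Ccnb1 ends where the gene model of the count files begins. The last 26 bases of Cdk1, with the CHR element 15 bases before its RefSeq start, lie inside that gene model. Capitals mark CCAAT boxes (CCAAT, or ATTGG on the other strand), cell cycle homology region (CHR) elements (TTTGAA or TTCGAA, or TTCAAA on the other strand) and E2F words (TTTCCCGC, TTTGGCGC, TTTCGCGC or TTTGCCGC, either strand). As background, NF-Y binds CCAAT boxes, the DREAM and MuvB complexes bind CHR elements, and E2F factors bind E2F sites.
Ccnb1, chr13:100786571-100786736: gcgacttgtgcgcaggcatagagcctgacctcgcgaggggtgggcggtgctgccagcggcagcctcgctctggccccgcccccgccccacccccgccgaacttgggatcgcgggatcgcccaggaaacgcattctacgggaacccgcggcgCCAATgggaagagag
Cdk1, chr10:69352913-69353162: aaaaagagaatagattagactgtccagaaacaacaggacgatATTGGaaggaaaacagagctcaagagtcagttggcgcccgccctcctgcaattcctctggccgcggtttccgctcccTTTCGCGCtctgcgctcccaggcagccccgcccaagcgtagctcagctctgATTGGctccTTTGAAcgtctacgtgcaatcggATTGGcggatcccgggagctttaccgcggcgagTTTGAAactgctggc
Mki67, chr7:135716380-135716629: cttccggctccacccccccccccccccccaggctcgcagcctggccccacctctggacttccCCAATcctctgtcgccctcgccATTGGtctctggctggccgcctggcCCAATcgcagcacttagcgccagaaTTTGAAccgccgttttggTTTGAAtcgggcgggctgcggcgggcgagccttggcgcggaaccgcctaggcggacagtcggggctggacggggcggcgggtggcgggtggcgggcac
Top2a, chr11:99024190-99024439: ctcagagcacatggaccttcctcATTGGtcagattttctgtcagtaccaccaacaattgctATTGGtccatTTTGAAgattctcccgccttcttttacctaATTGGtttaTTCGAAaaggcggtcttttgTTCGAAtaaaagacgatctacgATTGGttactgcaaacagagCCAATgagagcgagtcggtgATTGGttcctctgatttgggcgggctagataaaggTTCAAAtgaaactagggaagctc
Mcm6, chr1:128359706-128359955: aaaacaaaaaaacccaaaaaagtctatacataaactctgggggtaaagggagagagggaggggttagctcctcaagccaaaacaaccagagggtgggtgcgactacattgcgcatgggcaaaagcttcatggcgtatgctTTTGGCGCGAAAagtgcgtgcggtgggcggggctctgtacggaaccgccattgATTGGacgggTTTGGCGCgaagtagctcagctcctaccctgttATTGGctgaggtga

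In the 250 bases before the start, Cdk1 held 3 CCAAT boxes, 2 CHR elements and 1 E2F word, Mki67 held 3 CCAAT boxes and 2 CHR elements, and Top2a held 6 and 4. Mcm6 held 2 CCAAT boxes and 3 E2F words, of which 2 overlap (TTTGGCGCGAAA), and no CHR element. A second CCAAT box of Ccnb1, 67 bases before its RefSeq start, lies inside the gene model and is not printed. Of the 34 promoters, 26 (76.5%) held a CCAAT box, against 34.5% of 27025 mouse promoters of the same length. A CHR element was found in 9 (26.5%, against 17.4%), in 8 of 26 promoters of G2 and M genes and 1 of 8 of S phase genes. E2F words were found in 4 (11.8%, against 1.91%), 3 of them S phase genes. Both a CCAAT box and a CHR element were found in 26.5%, against 6.21%. These are matches of letters, given as a description of the sequences.

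On HFD alone, no cell division gene passed the test between NaV1.5 and control atria, while the G2 and M genes lay higher by a median of 0.95 on the log2 scale. Cdk1 and Ccnb1 came closest, with log2 differences of 1.36 (SE 0.28, edgeR adjusted p = 0.0771) and 1.67 (SE 0.36, adjusted p = 0.0842). Of all genes, 0.0371% were called higher and 0.0495% lower. Of the 38, 37 had a positive difference, as had 51.2% of all genes. At an unadjusted p below 0.05, 20 of 38 tested genes were higher, against 4.24% of all genes, and 1 (Cenpa) was lower, against 3.8%. With no filter on low counts these were 23 of 40. DESeq2 called 4 genes higher (Mki67, Cdk1, Rrm2 and Ccnb1; 0.291% of all genes) and 0 lower (0.266%), and limma-voom 7 higher (0.421%) and Cenpa lower (0.346%). The values of 9 genes did not overlap between the 2 groups with NaV1.5 higher, against 1.73% of all genes: Cenpf, Bub1b, Ube2c, Aurka, Ccna2, Cenpe, Cdk1, Hmmr and Ccnb1. None did so with NaV1.5 lower (1.66% of all genes). Without Ctrl_HFD replicate 2 the unadjusted count was 12, and with all 29 libraries in one fit it was 6. With no batch term, where Ctrl_HFD replicate 4 counts, 0 genes passed, 21 were higher at an unadjusted p below 0.05, and Mki67 moved from 1.43 to 1.08 and Kif23 from 1.08 to 0.67. Shares over all genes were not taken for these refits or for the fit with no filter.

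Among the 8 genes of mitotic entry, 6 were higher at an unadjusted p below 0.05 on HFD, against 4.24% of all genes. Aurka, the kinase of spindle poles, had 1.44, 0.870, 1.51 and 1.53 CPM in Ctrl_HFD and 1.84, 2.46, 1.73, 3.18 and 2.16 in NaV1.5_HFD, with no overlap. Its log2 difference was 0.86 (SE 0.28, edgeR adjusted p = 0.352). Ccnb2, at 0.702, 0.901, 1.27 and 1.48 CPM in Ctrl_HFD and 1.89, 2.28, 1.04, 2.75 and 2.96 in NaV1.5_HFD, overlapped through 1 NaV1.5_HFD library. Its log2 difference was 1.22. Cyclin A2 (Ccna2) and Melk, a kinase gene of proliferating cells, differed by 1.00 and 1.40. Plk1, the polo-like kinase of mitosis, and Foxm1, the transcription factor of G2 and M genes, had the smallest differences of this role at 0.56 and 0.54.

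Of the 4 genes of chromosomes and the chromosomal passenger complex, 3 were higher at an unadjusted p below 0.05, against 4.24% of all genes. Mki67, which encodes the proliferation marker Ki-67 (chromosome 7, 135689784 to 135716361), had 1.79, 2.02, 2.85 and 4.67 CPM in Ctrl_HFD. In NaV1.5_HFD it had 4.62, 4.96, 4.95, 5.97 and 9.04 CPM. Only the batch 2 library of Ctrl_HFD, at 4.67, reached the range of NaV1.5_HFD, and the log2 difference was 1.43 (SE 0.37, edgeR adjusted p = 0.219). Top2a, the topoisomerase that untangles chromosomes, differed by 1.05, and survivin (Birc5) and Aurkb, both of the passenger complex, by 0.87 and 0.69.

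The kinetochore genes held the sole gene with a negative difference. Cenpa (chromosome 5, 30666777 to 30674830, plus strand) had 41.6, 47.5, 50.3 and 50.9 CPM in Ctrl_HFD and 34.7, 29.3, 31.5, 37.4 and 45.3 in NaV1.5_HFD. One NaV1.5_HFD library, replicate 5, lay inside the Ctrl_HFD range. The log2 difference was -0.38 (SE 0.12, edgeR adjusted p = 0.333), and it was -0.29 over both diets (adjusted p = 0.146). The other tested kinetochore and checkpoint genes lay higher: Nuf2 and Ndc80, of the microtubule-binding complex, by 1.14 and 0.95, the centromere proteins Cenpf and Cenpe by 1.05 and 0.73, and the checkpoint kinase gene Bub1b by 0.58. No exon of Cenpa overlaps another gene in the annotation.

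Of the anaphase-promoting complex, Ube2c, its ubiquitin-conjugating enzyme, had 0.936, 1.06, 1.39 and 1.43 CPM in Ctrl_HFD and 1.79, 2.64, 3.22, 3.51 and 3.06 in NaV1.5_HFD. The groups did not overlap, and the log2 difference was 1.35 (SE 0.41, edgeR adjusted p = 0.307). Cdc20 had 1.64, 2.61, 1.88 and 3.15 CPM in Ctrl_HFD and 2.36, 3.80, 2.19, 4.55 and 4.27 in NaV1.5_HFD, which overlap. Its log2 difference was 0.74. Counting used no strand, and 22.8% of the exonic bases of Ube2c lie over Tnnc2 on the other strand and 2.84% of those of Cdc20 over Elovl1, so their counts are less certain.

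Among spindle genes, Hmmr, a microtubule-binding protein, differed by 1.48 on HFD, the motor Kif11 by 1.28, the spindle assembly factor Tpx2 by 1.15 and Nusap1 by 0.52. Nusap1 had 1.21, 1.80, 1.57 and 2.61 CPM in Ctrl_HFD and 1.58, 2.33, 2.07, 2.32 and 2.71 in NaV1.5_HFD, so the groups overlapped. Among genes of cytokinesis, the final split of the cell, the motor Kif23 had 0.819, 0.994, 1.15 and 2.31 CPM against 1.31, 1.34, 2.36, 2.61 and 2.76. Only the batch 2 library of Ctrl_HFD lay within the NaV1.5_HFD range, and the log2 difference of Kif23 was 1.08 (SE 0.29, edgeR adjusted p = 0.233). Anln, an actin-binding scaffold, Prc1, which bundles the central spindle, and Racgap1, a partner of Kif23, differed by 0.69, 0.61 and 0.60. The motor Kif20a differed by 0.16, with 1.87, 1.65, 2.48 and 2.02 CPM in Ctrl_HFD and 1.05, 3.18, 2.01, 1.85 and 2.91 in NaV1.5_HFD. For Kif20a, 29.3% of exonic bases lie over Cdc23 on the other strand. In all, 8 of the 40 genes share exonic bases with a gene on the other strand, the rest being Ccna2, Plk1, Nusap1, Prc1 and Ccne2.

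**Figure D2:**
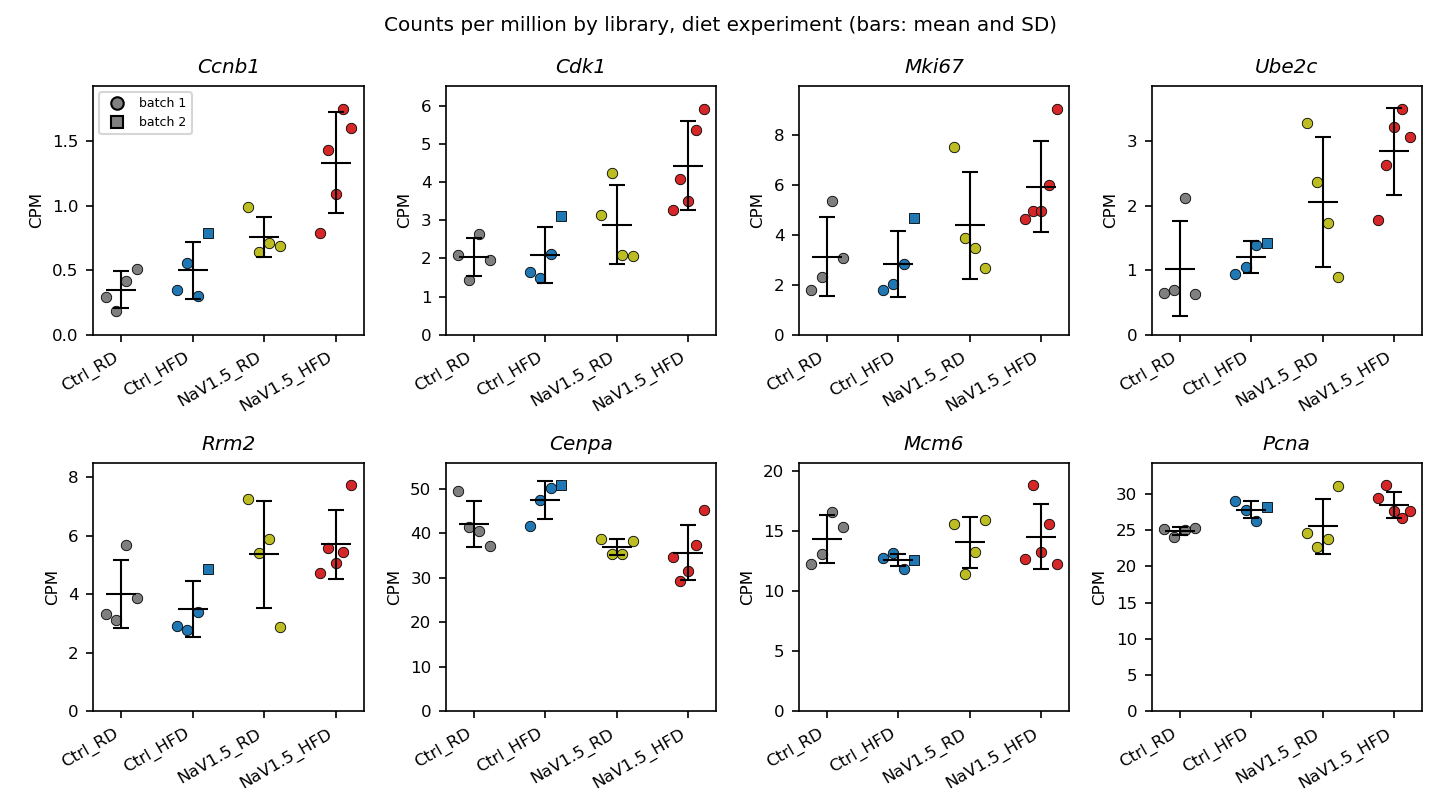
Level in CPM (y axis, from 0) of 8 genes in each library of the 4 diet groups (x axis); points are libraries (circles batch 1, square batch 2), and bars are the mean and SD of each group. Ccnb1, Cdk1, Mki67 and Ube2c sit highest in NaV1.5_HFD (Ccnb1 at 0.788 to 1.75 CPM), Cenpa sits lower in NaV1.5 than in Ctrl_HFD, and Mcm6 and Pcna overlap between genotypes on HFD.

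The genes of S phase differed from control by less on HFD, with a median log2 difference of 0.11. Of these 9 genes, 1 (Rrm2) was higher at an unadjusted p below 0.05, against 4.24% of all genes. Rrm2, the ribonucleotide reductase subunit that supplies deoxynucleotides, had 2.92, 2.77, 3.39 and 4.87 CPM in Ctrl_HFD. In NaV1.5_HFD it had 4.73, 5.59, 5.06, 5.45 and 7.73 CPM, and its log2 difference was 0.93 (SE 0.25, edgeR adjusted p = 0.249). Only the batch 2 library of Ctrl_HFD overlapped the NaV1.5_HFD values. Pcna (chromosome 2, 132249162 to 132253314) had 29.01, 27.8, 26.2 and 28.2 CPM in Ctrl_HFD against 29.4, 31.2, 27.6, 26.6 and 27.6, a log2 difference of 0.04 (SE 0.09). Mcm6 had 12.8, 13.1, 11.9 and 12.6 CPM in Ctrl_HFD against 12.7, 18.8, 13.3, 15.6 and 12.3, a log2 difference of 0.21 (SE 0.15). The helicase subunits Mcm2, Mcm3 and Mcm5 differed by 0.20, 0.08 and 0.10, thymidylate synthase (Tyms) by 0.01, cyclin E2 (Ccne2) by 0.18 and the origin-licensing factor Cdc6 by 0.11. The SEs of Pcna and of the 4 MCM genes on HFD were 0.09 to 0.15, against 0.23 to 0.50 for the G2 and M genes other than Cenpa. The difference between the S phase genes and the genes of G2 and M was not tested.

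**Figure D3:**
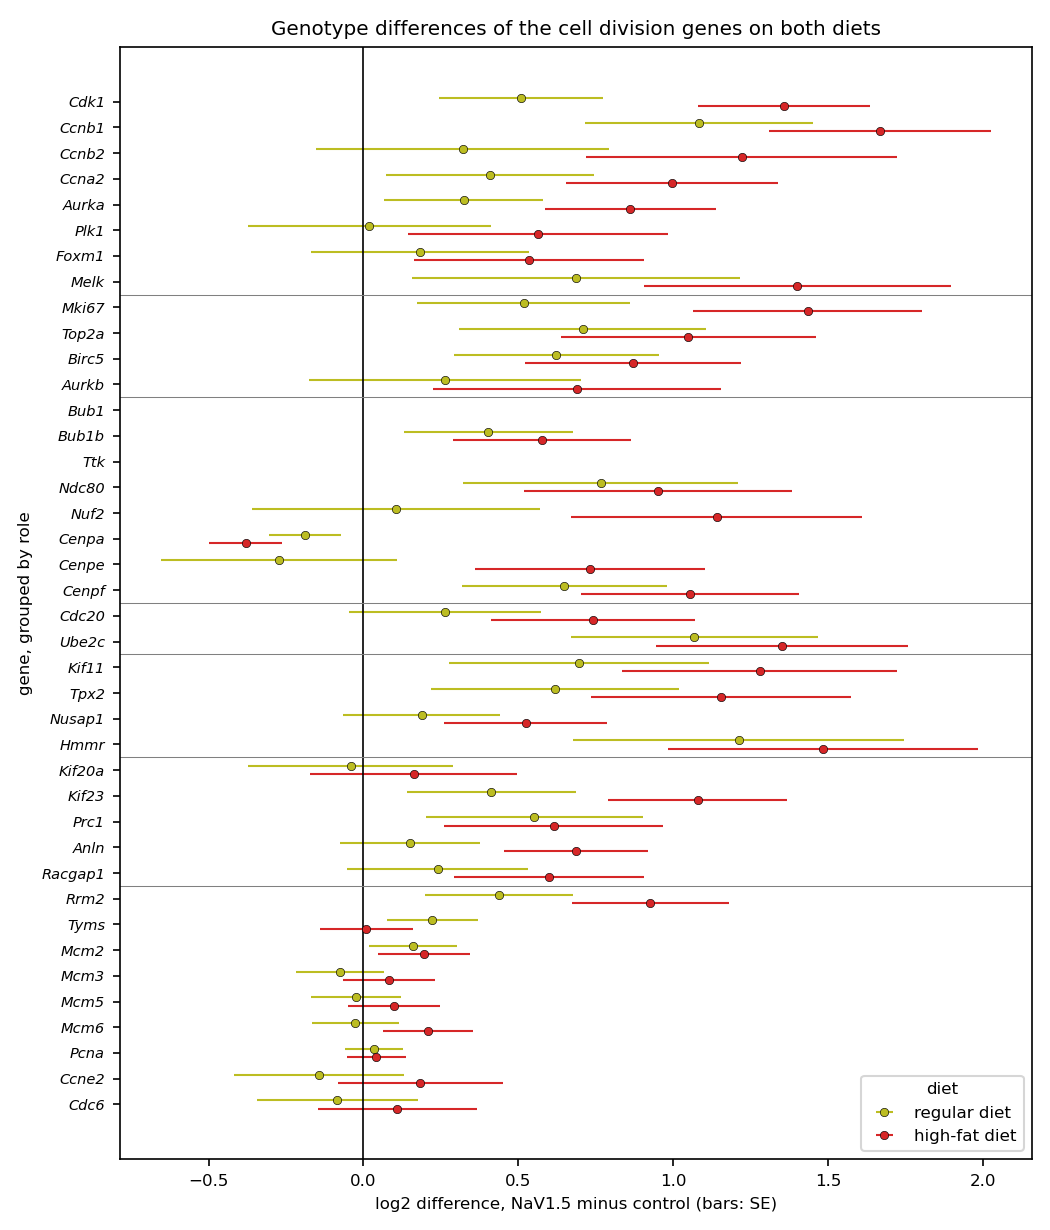
Log2 difference between NaV1.5 and control atria (x axis; bars are the SE) for each gene (y axis, grouped by role) on regular diet and high-fat diet; Bub1 and Ttk were not tested. On HFD most G2 and M genes lie between 0.52 and 1.67, Kif20a at 0.16 and Cenpa at -0.38, while the S phase genes other than Rrm2 lie between 0.01 and 0.21.

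On RD, no cell division gene passed the test between genotypes (1 gene was called higher and 1 lower of 16168, 0.00619% each), and DESeq2 (0.124% and 0.0433% of all genes higher and lower) and limma-voom (0.0742% and 0.0186%) called 0 of the 38. At an unadjusted p below 0.05, 3 genes were higher, against 3.53% of all genes: Ccnb1 at a log2 difference of 1.08, Ube2c at 1.07 and Hmmr at 1.21. None was lower (2.59% of all genes). Ccnb1 alone did not overlap between the groups, against 1.72% of all genes higher and 1.68% lower. Ube2c had 0.651, 0.688, 2.13 and 0.628 CPM in Ctrl_RD and 3.28, 2.36, 1.73 and 0.893 in NaV1.5_RD. Mki67 had 1.79, 2.31, 5.34 and 3.06 CPM in Ctrl_RD and 7.50, 3.87, 3.45 and 2.68 in NaV1.5_RD, a log2 difference of 0.52 (SE 0.34). In both genes 1 Ctrl_RD library, replicate 3, and 1 NaV1.5_RD library, replicate 1, were the highest of their groups. NaV1.5_RD replicate 1 was the highest of its group for 28 of the 40 genes, and without it the unadjusted count on RD was 1 and the median log2 difference 0.09. Ctrl_RD replicate 3 was the highest for 26, and without it the count was 9 and the median 0.47. The other role leaders were Cdc20 at 0.26, Ccnb2 at 0.32, Nusap1 at 0.19, Kif20a at -0.04, Cenpa at -0.19 and Pcna at 0.03 on RD.

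The difference between the genotype differences on the 2 diets was tested directly, and no gene of 16168 passed (DESeq2 and limma-voom called 0 as well). At an unadjusted p below 0.05, 1 of the 38 cell division genes, Cdk1, was larger on HFD, against 1.16% of all genes (1.1% smaller), with an interaction of 0.85 (SE 0.38, edgeR adjusted p = 1). Mki67 and Cenpe followed at 0.92 (SE 0.50) and 1.00 (SE 0.53). Without NaV1.5_RD replicate 1 the count was 5, and without Ctrl_RD replicate 3 it was 0. The larger number of genes past an unadjusted threshold on HFD is therefore not shown to be a difference between the diets.

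High-fat diet itself was compared within each genotype. In NaV1.5 mice, 0 of the 38 genes passed, while 0.47% of all genes were called higher and 0.656% lower with HFD. At an unadjusted p below 0.05, 6 were higher, against 8.38% of all genes: Ccnb1 at a log2 difference of 0.80 (SE 0.31), Cdk1 at 0.61 (SE 0.24), Melk at 1.04 (SE 0.45), Cenpe at 0.84 (SE 0.35), Hmmr at 0.94 (SE 0.44) and Ccne2 at 0.55 (SE 0.26). None was lower (10.6% of all genes). DESeq2 called 0 (2.37% and 2.88% of all genes higher and lower), and limma-voom called Pcna higher (5.26%) and none lower (6.8%). Without NaV1.5_RD replicate 3 the unadjusted count was 1.

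In control mice no gene passed with edgeR, and 0 of the 38 had an unadjusted p below 0.05, against 3.73% of all genes higher and 4.76% lower. DESeq2 (0.0742% and 0.0433% of all genes higher and lower) and limma-voom (0.198% and 0.266%) called 0 of the 38. Aurka had the smallest p, with a log2 difference of -0.59 (SE 0.29, edgeR adjusted p = 0.591). The values of Pcna did not overlap between the groups, at 25.2, 24.1, 25.0 and 25.3 CPM in Ctrl_RD and 29.01, 27.8, 26.2 and 28.2 in Ctrl_HFD, against 3.07% of all genes higher and 2.9% lower. Its log2 difference was 0.15 (SE 0.10). The median over the 38 genes was -0.21 in control mice and 0.27 in NaV1.5 mice; the test of this difference gene by gene is the interaction above.

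Other genes of the cell cycle, from 3 lists that do not hold the 40 genes, were read beside them. Of 72 tested genes of mitosis and cytokinesis, 1 rose over both diets in NaV1.5 atria, Ckap2, a spindle protein, with a log2 difference of 1.23 (SE 0.26, edgeR adjusted p = 0.0400), and 0 fell. At an unadjusted p below 0.05, 27 were higher and 0 lower over both diets (6.24% and 5.16% of all genes). On HFD 16 were higher and 0 lower (4.24% and 3.8%), and on RD 14 and 0 (3.53% and 2.59%). The median log2 difference of this list was 0.36 over both diets and 0.46 on HFD. Spc25, of the kinetochore, and Knstrn, of the spindle, came next at 0.90 and 0.91. Of 47 tested genes of the G1/S transition and DNA replication, 1 rose over both diets, E2f1, an activator of S phase genes, at 0.85 (SE 0.15, edgeR adjusted p = 0.00717), and the list's median was 0.05. Rfc5, a clamp loader subunit, and Gmnn, an inhibitor of origin licensing, had the next smallest p, at -0.27 and 0.25. Of 38 tested genes of G1 control and cell cycle exit, 0 passed, with 2 higher and 2 lower at an unadjusted p below 0.05 (6.24% and 5.16% of all genes). Their smallest p-values were those of cyclin D2 (Ccnd2) at 0.29, Rbl2, a relative of the retinoblastoma gene, at -0.22 and cyclin D1 (Ccnd1) at 0.29.

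Markers of some other cells lay higher beside the G2 and M genes, and those of others did not. Over both diets, the comparison in which Ccnb1 and Cdk1 passed, 4 of 10 tested macrophage, 3 of 9 fibroblast, 2 of 7 endothelial, 4 of 7 erythroid and 2 of 4 megakaryocyte and platelet markers were higher at an unadjusted p below 0.05 (6.24% of all genes). Their median log2 differences were 0.19, 0.21, 0.10, 0.95 and 0.65. In the same comparison 3 of 6 cardiomyocyte markers were lower (5.16% of all genes). Of 8 T cell markers 1 was higher and 1 lower. No tested smooth muscle, epicardial, neutrophil, mast cell, thymocyte, Schwann cell or adipocyte marker was higher at this threshold. On HFD, erythroid markers, 11 of the 12 listed being in the files, summed to 596 to 813 CPM in Ctrl_HFD and 902 to 2934 CPM in NaV1.5_HFD. Of the 7 tested, 5 were higher at an unadjusted p below 0.05 (4.24% of all genes on HFD), with a median log2 difference of 1.59. Of 4 tested megakaryocyte and platelet markers 3 were higher (sums 36.6 to 44.1 and 42.2 to 80.1 CPM), and of 3 tested neutrophil markers 2 were (sums 3.27 to 4.72 and 2.79 to 11.3 CPM, 9 listed). No marker of these lists passed the adjusted threshold. In NaV1.5_HFD replicates 1 to 5 the G2 and M genes without Cenpa summed to 50.8, 76.0, 64.0, 82.2 and 93.1 CPM. The erythroid sums of these libraries were 1386, 2934, 2524, 2820 and 902 CPM. On HFD, 1 of 10 macrophage markers was higher (sums 540.0 to 727 CPM in Ctrl_HFD and 602 to 773 in NaV1.5_HFD), with a median log2 difference of 0.21. So were 1 of 9 fibroblast markers (2534 to 2667 and 2407 to 3706 CPM, median 0.19) and 2 of 7 endothelial markers (829.6 to 943 and 923 to 1192 CPM, median 0.20). Of 6 cardiomyocyte markers 3 were lower on HFD (3.8% of all genes), with a median of -0.24. The 8 thymocyte markers summed to 10.49 to 11.95 CPM in Ctrl_HFD and 7.732 to 13.29 CPM in NaV1.5_HFD. Among them, Rag2 was at 0 in every library of the diet experiment, and Rag1 in all Ctrl_RD and all NaV1.5_HFD libraries. The part of these cells in the levels of the cell division genes was not tested.

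NR was compared with vehicle to ask whether the supplement changed gene expression in NaV1.5 atria on HFD. Of the 40 cell division genes 0 passed the test, and 0 had an unadjusted p below 0.05 in either direction. Of 16482 genes, 0.0849% were called higher and 0.34% lower, and 4.3% and 6.8% at an unadjusted p below 0.05. DESeq2 (0.328% and 1.21% of all genes higher and lower) and limma-voom (0.0789% and 0.261%) called 0 of the 40. Between the batch 3 libraries, 38 of the 40 log2 differences were negative, against 51.2% of all genes, with a median of -0.71 for 31 genes of G2 and M and -0.13 for 9 of S phase, and the SEs ran from 0.10 for Pcna to 1.25 for Hmmr. The direction depended on the batch term: with none, so that the batch 2 NR libraries count, the median over the 40 genes was 0.26, and Cenpf, Cdc20, Hmmr, Ube2c, Cenpe and Kif11 turned positive. Without vehicle replicate 4 the median moved from -0.59 to -0.22.

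The vehicle libraries differed widely among themselves in these genes. The SD of log2(CPM + 0.5) between vehicle libraries had a median of 0.856 for the G2 and M genes, against 0.168 for all genes tested. For NR it was 0.893 against 0.269. In the diet groups the median for G2 and M genes was 0.341 to 0.518, against 0.166 to 0.206 for all genes. Raw counts there were low, such as 3 to 37 per library for Ccnb1, and the part of counting noise in these SDs was not tested. The G2 and M genes without Cenpa summed to 56.2, 171, 62.5, 287 and 144 CPM in vehicle replicates 1 to 5, which is 5.11 times from lowest to highest. Over the NR libraries they ran from 83.5 to 399 CPM with a median of 105. Vehicle replicate 4 was the highest of its group for 36 of the 40 genes, and NR replicate 2 for 36 of the 40. Vehicle replicate 1 was the lowest for 21 and replicate 3 for 17. Such counts of the highest or lowest library, here and elsewhere, were not taken over all genes. In vehicle replicates 4 and 1, fibroblast markers summed to 4536 and 3609 CPM, and macrophage markers to 662 and 483. Endothelial markers summed to 1175 and 1061 CPM there, erythroid markers to 1505 and 1843, and cardiomyocyte markers to 54410 and 58280. The part of these cells in the spread was not tested.

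**Figure D4:**
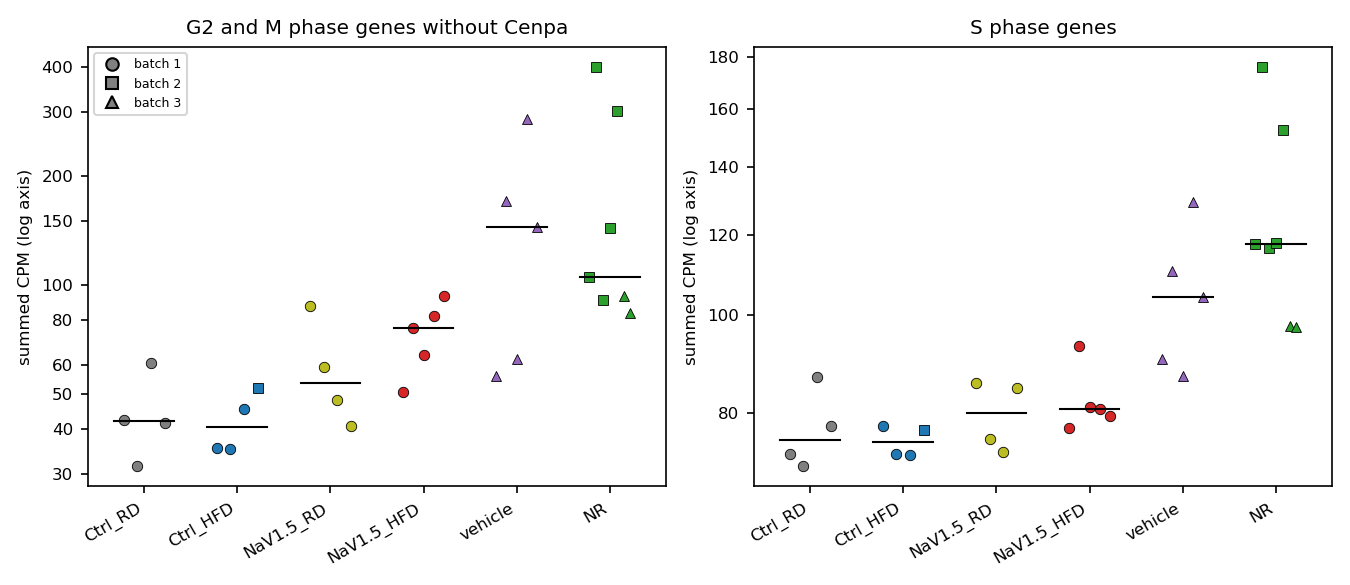
Summed CPM (log axis) of the G2 and M phase genes without Cenpa (left) and of the S phase genes (right) in each of the 29 libraries by group, with batch as the point shape and the median as a line; CPM was scaled within each experiment, so the diet groups and the last 2 groups are not compared in level. The G2 and M sums span 56.2 to 287 CPM in vehicle and 83.5 to 399 CPM in NR, a wider range than in any diet group, and the S phase sums span less.

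By gene, the smallest p under NR was that of Cenpf, a large kinetochore protein (chromosome 1, 189640606 to 189688086). It had 3.63, 8.57, 2.36, 11.5 and 8.75 CPM in vehicle, 2.89 and 3.59 in the 2 batch 3 NR libraries, and 2.89 to 24.1 with a median of 12.8 over all 7. The log2 difference was -1.11 (SE 0.58, edgeR adjusted p = 0.543). All 5 batch 2 NR libraries lay above every vehicle library, and both batch 3 NR libraries lay within the vehicle range. With no batch term the difference turned to 0.95.

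Cenpa was the sole gene whose vehicle and batch 3 NR values did not overlap, against 8.25% of all genes lower and 5.93% higher. It had 38.9, 30.1, 28.95, 27.9 and 30.1 CPM in vehicle, 25.7 and 26.6 in the batch 3 NR libraries, and 25.7 to 39.0 with a median of 26.9 over all 7. The log2 difference was -0.26 (SE 0.16, edgeR adjusted p = 0.615). Vehicle replicate 1, the highest for Cenpa, was the lowest of its group for 21 of the 40 genes.

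Hmmr had 1.23, 5.98, 1.48, 14.1 and 3.17 CPM in vehicle and 2.27 and 1.65 in batch 3 NR, with 1.65 to 17.3 and a median of 2.57 over all 7. Ube2c had 1.09, 3.64, 1.14, 7.06 and 1.80 CPM in vehicle and 1.55 and 1.09 in batch 3 NR, with 0.735 to 9.14 and a median of 1.57 over all 7. Kif11 had 1.51, 6.13, 3.43, 12.3 and 7.16 CPM in vehicle and 3.15 and 3.17 in batch 3 NR, with 2.99 to 16.7 and a median of 3.79 over all 7. In each, vehicle replicates 1 and 3 were the 2 lowest of vehicle and replicate 4 the highest, and the batch 3 NR values lay within the vehicle range. The log2 differences were -1.43 (SE 1.25), -1.18 (SE 1.10) and -0.96 (SE 0.91).

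Cenpe had 0.850, 3.59, 1.41, 6.92 and 2.57 CPM in vehicle and 1.91 and 1.09 in batch 3 NR, with 1.09 to 12.6 and a median of 2.28 over all 7. Cdc20 had 2.03, 3.44, 1.68, 6.69 and 3.61 CPM in vehicle and 1.34 and 2.27 in batch 3 NR, with 1.34 to 9.66 and a median of 2.71, so that 1 of the 2 batch 3 NR values lay below vehicle. Racgap1 had 3.30, 7.42, 2.83, 11.1 and 6.94 CPM in vehicle and 3.87 and 3.92 in batch 3 NR, with 3.87 to 11.9 and a median of 4.18. Their log2 differences were -1.05 (SE 0.99), -0.96 (SE 0.69) and -0.71 (SE 0.59). The SEs of these genes were 0.58 to 1.25, so differences of this size were not resolved.

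The S phase genes varied less. Pcna had 35.96, 36.1, 34.9, 38.4 and 32.6 CPM in vehicle, 33.4 and 34.9 in batch 3 NR, and 46.9 to 60.8 in batch 2 NR, a log2 difference of -0.06 (SE 0.10). Mcm6 had 15.9, 19.3, 15.9, 19.5 and 19.96 CPM in vehicle and 16.6 and 16.4 in batch 3 NR, a log2 difference of -0.13 (SE 0.15). Every batch 2 NR library lay above every vehicle library for Pcna. Tyms and Mcm3 were the 2 genes above 0, at 0.21 and 0.12. Rrm2 lay at -0.54 (SE 0.73).

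**Figure D5:**
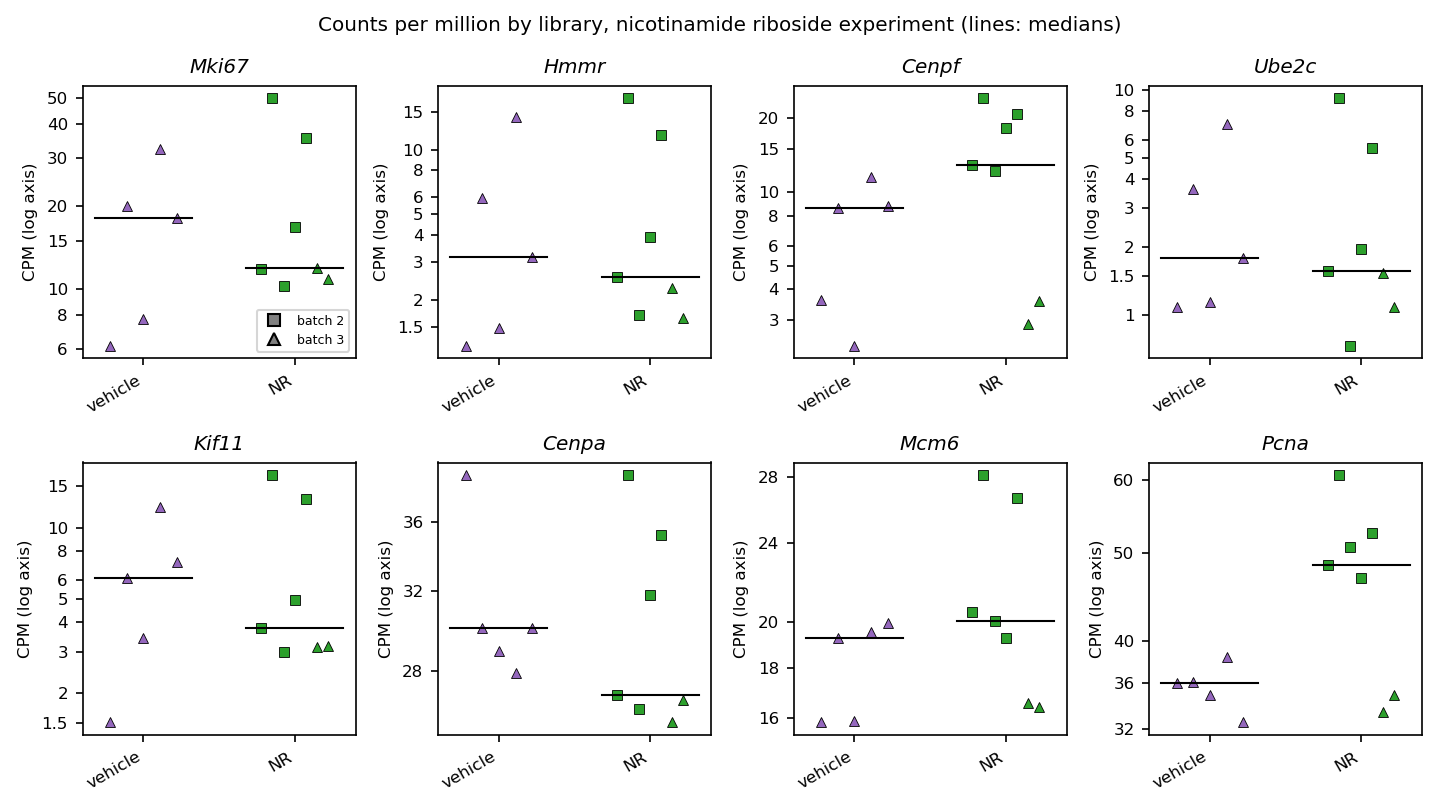
Level in CPM (log axis) of 8 genes in each vehicle and NR library of the second experiment; squares are batch 2, triangles batch 3, and lines are group medians over both batches. Vehicle libraries of Mki67 span 6.18 to 32.4 CPM, the 2 batch 3 NR libraries lie within that range, and for Pcna all batch 2 NR libraries lie above the vehicle libraries.

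Batch and treatment cannot be told apart for the 5 batch 2 NR libraries, since no vehicle library is in batch 2. Cardiomyocyte markers summed to 15200 to 17550 CPM in batch 2 NR, 51560 and 52780 in batch 3 NR and 46990 to 58280 in vehicle. Epicardial markers summed to 1392 to 2061 CPM in batch 2 NR, 312 and 644 in batch 3 NR and 321 to 442 in vehicle. The part of these cells in the levels above was not tested. Mki67 had 6.18, 20.1, 7.74, 32.4 and 18.2 CPM in vehicle and 11.9 and 10.9 in batch 3 NR, a log2 difference of -0.58 (SE 0.81). The remaining G2 and M genes lay between -0.99 (Melk) and -0.16 (Aurkb), among them Ccnb1 at -0.92, Cdk1 at -0.88, Top2a at -0.94, Bub1 at -0.72 and Ttk at -0.71. Of 79 other genes of mitosis and cytokinesis, 0 passed and 0 had an unadjusted p below 0.05, with a median of -0.41.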

How the data were processed

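RNA of atria was extracted with a miRNeasy micro kit and made into stranded poly-A TruSeq libraries, per the labels' protocols. The submitters' processing notes name STAR 2.7.6a, FastQC 0.11.7 and both GRCm38 and mm10. The authors' deposited counts come from featureCounts 2.0.1, per the file headers, which show read pairs summed by gene name with no strand setting, and multi-mapping or multi-overlapping pairs not counted. Overlapping genes are therefore less certain. The 40 genes, their roles and the other lists were chosen with earlier results of these data known.

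Tests used the quasi-likelihood F-test of edgeR 4.0.16 (2-sided, robust, TMM scaling, low counts removed by filterByExpr) in R 4.3.3, with group and batch as terms and Benjamini-Hochberg adjustment over all genes tested (threshold 0.05). The 4 diet groups formed 1 fit and the NR experiment another. CPM values carry TMM scaling within an experiment. Alternatives were DESeq2 1.42.0, limma-voom (limma 3.58.1), other scaling, filters and batch settings, all 29 libraries in one fit, a replicate block and each library left out in turn. All columns had a sample, and no 2 of 59 within-group pairs of files agreed within sampling noise (smallest chi-square per gene 6.9). The titles of 2 libraries, called here Ctrl_RD replicate 1 and NaV1.5_RD replicate 4, hold no number. Genes with values by library are the 8 smallest p-values on HFD between genotypes and under NR, and the highest per kb of each role. Values are given for libraries of the compared groups, and under NR for vehicle and batch 3 NR. Mki67, Ube2c, Pcna and Mcm6 are also given outside this rule, chosen after their values were seen. These tests were tested on simulated data. On HFD between genotypes, 40% of genes changed 1.5-fold and 80% of those changed 2-fold were recovered. For NR these were 48% and 68%. The changed genes were drawn at random and no batch differences were simulated, so recovery for the cell division genes was not tested. Python 3.11.15 and matplotlib 3.10.9 drew the figures. A check of the genotype labels by the level of 1 gene is not reported here.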

Additional observations from a re-analysis of the deposited data

Results flagged for a closer look

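Of 120 gene or list values by group that were checked for a library apart from the rest, 6 were found, where chance gives about 1 in 20. Ccnb1 had 12.1 CPM in NR replicate 2 (batch 2), above the other 6 NR libraries. Rrm2 had 7.73 CPM in NaV1.5_HFD replicate 5 and Ube2c had 2.13 CPM in Ctrl_RD replicate 3, each above the rest of its group. Cenpa had 38.9 CPM in vehicle replicate 1, the lowest library of its group for 21 of the 40 genes. Aurka had 0.870 CPM in Ctrl_HFD replicate 2, below the other 3 libraries, and its log2 difference on HFD was 0.63 without it. The S phase genes summed to 93.1 CPM in NaV1.5_HFD replicate 2, above the other 4 libraries.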

How the results depend on the processing

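Over the alternatives run, Cdk1, Ccnb1, Mki67, Kif23, Rrm2, Ube2c, Cenpa and Aurka kept the sign of their genotype difference in all 26, both on HFD and over both diets. The alternatives share most of their libraries, and these genes were picked by their smallest p on HFD, so a kept sign is weak evidence. Counts depended on the tool. On HFD, 1 cell division gene passed with no low-count filter (Cdk1), 4 with DESeq2 and 8 with limma-voom, against 0; unadjusted higher counts of 20 became 6 with all 29 libraries in one fit. Over both diets, 2 became 5 with no low-count filter, 8 with DESeq2, 12 with limma-voom and 0 with all 29 libraries in one fit, where 21 unadjusted became 8. On RD, 3 unadjusted became 5 with no filter, 11 with limma-voom and 0 with all 29 libraries. For diet in NaV1.5, limma-voom called 1 (Pcna), and 6 unadjusted became 0 with all 29 libraries. For diet in controls limma-voom gave 1 unadjusted in place of 0, and for the interaction 2 in place of 1, or 0 with all 29 libraries. The cause of these changes was not tested. Shares over all genes at an unadjusted p below 0.05 are given for the main fits alone. For the other fits, here and below, the counts are therefore not read as a trait of the cell division genes. At the adjusted threshold limma-voom also called more of all genes, such as 5.26% higher against 0.47% with edgeR for diet in NaV1.5.

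With no batch term, the NR comparison gave 1 gene past the threshold (Pcna), 3 higher at an unadjusted p below 0.05 and a median of 0.26. No share over all genes was taken for this fit, so these counts are not read as a trait of the cell division genes. It turned Cenpf to 0.95, Cdc20 to 0.21, Hmmr to 0.18, Ube2c to 0.073, Cenpe to 0.56 and Kif11 to 0.18, since batch 2 libraries then enter the comparison.

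Leaving out 1 library gave 0 to 5 genes past the threshold over both diets (0 without NaV1.5_RD replicate 1; 5 without Ctrl_RD replicate 3 or NaV1.5_RD replicate 4), with 16 to 24 unadjusted and medians of 0.40 to 0.65. On HFD it gave 0 to 1, 12 to 24 and 0.69 to 0.84. On RD it gave 0, 1 to 9 and 0.09 to 0.47. For diet in NaV1.5 it gave 0 to 1 (Pcna, without NaV1.5_RD replicate 4), 1 to 8 and 0.11 to 0.40. For diet in controls it gave 0, 0 and -0.22 to -0.014. For the interaction it gave 0, 0 to 5 and 0.17 to 0.58. For NR it gave 0, 0 and -0.80 to -0.22.

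Same-numbered libraries did not vary together: r was -0.223 to 0.21 over 18 pairs in the diet experiment, with 4 above 0.1, and -0.105 to 0.214 over 5 pairs in the NR experiment, with 2 above 0.1. With the replicate number as a block, 0 genes passed over both diets, and unadjusted counts became 13 on HFD, 8 on RD and 3 for diet in NaV1.5. For NR no paired analysis was possible because numbers 1 to 5 coincide with different batches in the 2 groups.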
